A study of Mus musculus with 12 samples.

Results

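The comparison described here set 2 RNA sequencing libraries of MTΔECad cells at day 7 of an adipocyte protocol against 2 libraries at day 5, 4 of the 12 libraries of a time course. MTΔECad is a mouse breast cancer cell line of mesenchymal type, meaning that its cells have the loose, motile character of connective tissue cells. Cells were seeded at 20000 per cm2. They received 200 ng/ml of human BMP2, a bone morphogenetic protein, for 3 days, BMP2 with 2 μM rosiglitazone, an agonist of the nuclear receptor PPARγ, for 4 days, and rosiglitazone without BMP2 for the last 3 days. Day 5 cells had therefore had 2 days of the combination after 3 days of BMP2, and day 7 cells 4 days of it. No agent was added or withdrawn between the 2 days, and no untreated cells of the same age are among the 12 libraries, so rosiglitazone exposure, time in culture and cell density cannot be told apart. The other 8 libraries came from 0 h, 6 h, day 3 and day 10, 2 each, and give the course before and after the interval. The labels say that the RNA came from 2 independent experiments and name 1 cell line, so p-values measure the spread between these samples and no second line stands behind them.

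A precursor becomes a fat cell when PPARγ and C/EBPα switch on genes for taking up, making and storing fat, and a maturing cell then enlarges its lipid droplets and begins to secrete hormones such as adiponectin and adipsin. The same steps usually go with exit from the cell cycle and loss of stress fibres and of matrix-bound, motile features. PPARγ partners with RXR, SREBP factors drive sterol and fatty acid enzymes, and ATF4 drives amino acid supply genes when cells sense stress.

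Library totals were 15508887 and 16120302 counts at day 5 and 16239105 and 17570366 at day 7, and replicates correlated across genes at r of 0.9926 and 0.9933 in log2 CPM, the count scaled to the size of its library. Of 12740 genes tested, 4815 were called (edgeR's quasi-likelihood test, Benjamini-Hochberg adjusted p below 0.05), which is 37.8%. Of these, 2425 were higher at day 7 (19.0% of all tested) and 2390 lower (18.8%), while 628 rose (4.93%) and 484 fell (3.80%) by at least 2-fold. Paired values below are replicates 1 and 2 of a day, in that order. The libraries of the 2 days did not overlap for 8786 genes (69.0%). Every adjusted p below comes from that test unless another fit is named, and "rose" and "fell" are used of called genes only. The median log2 fold change of all genes tested was -0.0103. Day 7 replicate 1 mattered most to the count of calls, which was 3128 without it. Genes were also read in 58 lists by function or cell type, which hold 1253 distinct genes of the table. A list member absent from the table or below the count filter was not tested, and a member with few counts at day 5 passed the filter only through later times.

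**Figure D1:**
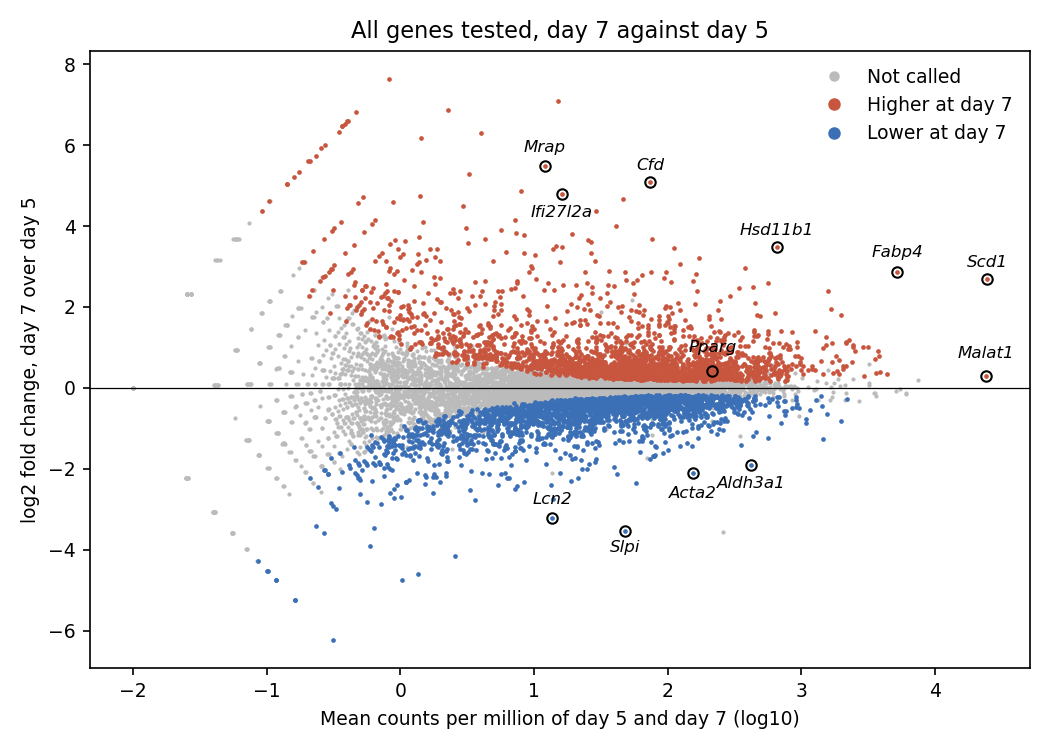
Each point is 1 of the 12740 genes tested, by mean CPM of the 2 days (log10, horizontal) and log2 fold change of day 7 over day 5 (vertical); red and blue points were called higher and lower. Scd1 and Fabp4 lie far right and high, Malat1 lies at a similar CPM with a small change, and the slanted streaks at low CPM are genes with few counts.

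Markers of white fat cells rose almost as a body, after a step from day 3 to day 5 whose median log2 fold change was 6.23. Of 24 markers 21 were tested, 19 rose and none fell, against 19.0% and 18.8% of all genes, with a median log2 fold change of 1.24. Their summed level was 11978 and 10467 CPM at day 5 and 31183 and 28211 CPM at day 7. Adiponectin (Adipoq), the hormone secreted by fat cells, read 95.4 and 76.1 CPM at day 5 and 672 and 665 CPM at day 7, a log2 fold change of 2.96 (SE 0.09, adjusted p = 2.49e-12). Adipsin (Cfd), a complement protease made by mature fat cells, went from 5.03 and 3.52 to 159 and 129.6 CPM (log2 fold change 5.08, SE 0.16, adjusted p = 1.56e-10). It was at 0.0318 CPM on average at day 3 and 591 at day 10, so most of its rise came after day 5. Fabp4, a fatty acid carrier, stood at 1386 and 1129 CPM and then at 10090 and 8322 CPM (log2 fold change 2.87, SE 0.12, adjusted p = 5.32e-11). Pck1, the enzyme that makes glycerol backbone from pyruvate in fat cells, rose from 12.6 and 9.73 to 159 and 126 CPM. In each of these genes the 2 day 7 libraries lay far above both day 5 libraries.

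Not every marker moved that much. Perilipin 1 (Plin1), which coats lipid droplets, had made most of its rise by day 5 and went from 746 and 627 to 1228 and 1149.6 CPM (log2 fold change 0.79, SE 0.09, adjusted p = 4.3e-06). The insulin-responsive glucose transporter Slc2a4 rose but stayed rare, at 0.186 and 0.298 CPM and then 2.15 and 2.78 CPM. Leptin (Lep) read 1.99 and 3.10 CPM at day 5 and 2.84 and 2.65 CPM at day 7 and was not called (adjusted p = 0.826). Resistin (Retn) had 0 counts at day 5 and 22 at day 7, at least 7.86-fold higher if day 5 is set to a floor of 3 counts in its 2 libraries together. Its call (adjusted p = 0.0024) was lost with DESeq2 (adjusted p = 0.42). In bulk RNA a larger share of fat cells and more RNA per fat cell cannot be told apart. Replicate 1 was the higher library for 17 of the 21 markers at day 5 and again at day 7, against 6427 and 6356 of all 12740 genes; the part of this in the results was not tested.

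**Figure D2:**
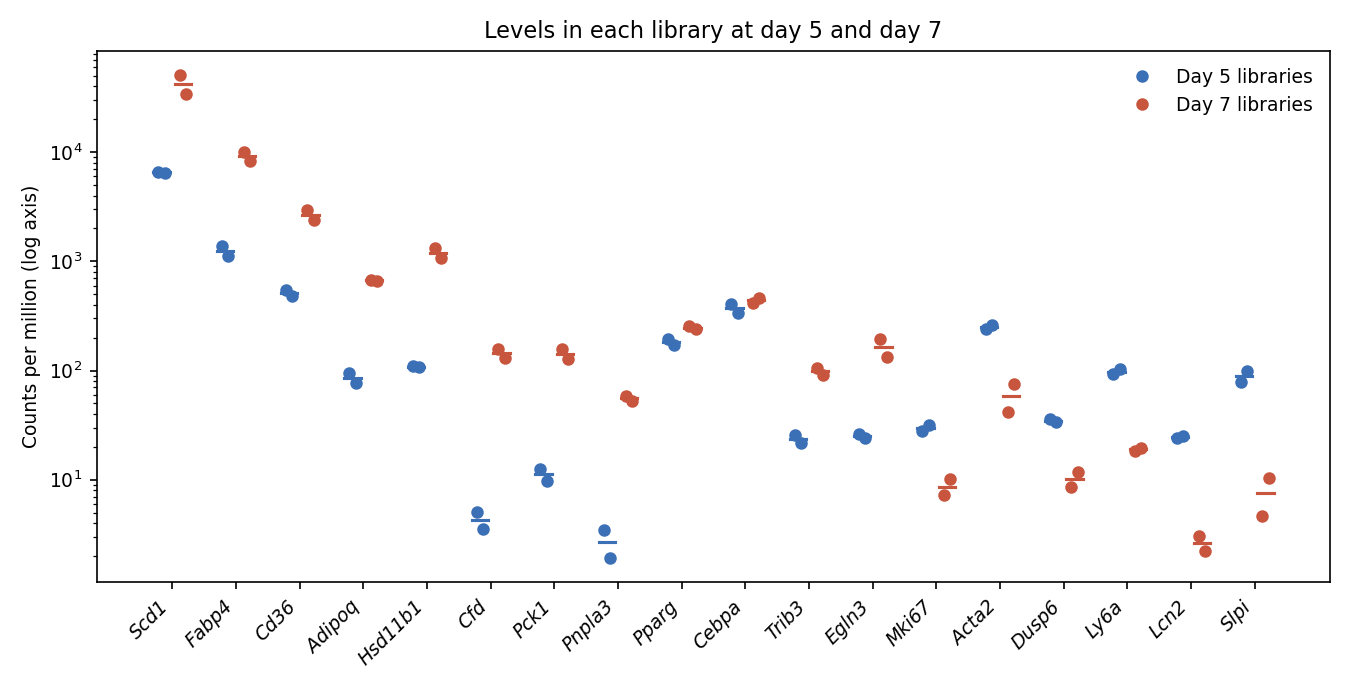
CPM of 18 genes (log axis) in the 2 libraries of day 5 (blue) and day 7 (red), with a bar at the mean of each pair. Fat cell genes rise by very unequal amounts, the points of Pparg and of Cebpa lie close together, and in the falling genes Acta2, Mki67 and Slpi the day 7 replicates lie further apart on the log axis than in Ly6a.

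Transcription factors that command the fat cell programme were called at about the share of all genes. Of 21 adipogenic factors tested, 5 rose (23.8%) and 3 fell (14.3%), against 19.0% and 18.8% of all genes tested, with a median log2 fold change of 0.009, and the count of rises ran from 3 (without day 5 replicate 2 or day 7 replicate 1) to 8 over the alternatives. Pparg, the target of rosiglitazone, read 195 and 173 CPM at day 5 and 254 and 239 CPM at day 7 (log2 fold change 0.42, SE 0.20). Its adjusted p was 0.139 in the fit of all 12 libraries, in which its day 3 libraries read 46.1 and 25.3 CPM. It passed in 5 of 20 alternative settings, with 0.00134 in a fit of the 4 libraries alone and 0.0254 with DESeq2 in a range of 1.17e-06 to 0.407, so the call depends on the fit. Cebpa read 411 and 335 CPM at day 5 and 419 and 458 CPM at day 7 (adjusted p = 0.0913), and passed the threshold in 4 of the 20 alternatives, among them without day 5 replicate 1. Cebpb, an early factor of adipogenesis, read 180.3 and 168 CPM at day 5 and 159 and 191 CPM at day 7 (adjusted p = 0.967). Srebf1, which encodes the lipogenic factor SREBP1, read 1848 and 1703 CPM at day 5 and 1583 and 1718 CPM at day 7 (adjusted p = 0.55). Among the factors that were called, the oxysterol receptor LXRα (Nr1h3) rose from 75.8 and 62.4 to 136 and 134 CPM, Zfp423, a marker of fat precursors, rose from a mean of 19.4 to one of 39 CPM, and Cebpd fell from 16.7 and 16.2 to 7.62 and 9.26 CPM. Of 18 inhibitors of adipogenesis 4 rose (22.2%) and 5 fell (27.8%), against 19.0% and 18.8% of all genes tested, with fewer falls without day 5 or day 7 replicate 1. Gata3 fell from 151 and 174 to 111 and 117 CPM and Nr2f2 (COUP-TFII) from 37.1 and 44.5 to 22.7 and 22.7 CPM. Ddit3 (CHOP) rose, as described with the stress genes.

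Genes known as PPAR targets rose too. Of 24 tested, 20 rose and none fell, with a median log2 fold change of 1.08 (all genes tested, -0.0103). Of the 24, 5 are also in the marker list. The lipid scavenger receptor Cd36 rose from 543 and 480.2 to 2973 and 2378 CPM (log2 fold change 2.39, SE 0.10, adjusted p = 1.01e-10). Ehhadh, a peroxisomal enzyme of fatty acid breakdown, went from 108 and 92.8 to 532 and 437 CPM. Pdk4, a kinase that inhibits pyruvate dehydrogenase, went from 101 and 99.3 to 447 and 309.9 CPM.

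Fat synthesis was led by 1 gene. Stearoyl-CoA desaturase 1 (Scd1), which makes monounsaturated fatty acids, read 6630.5 and 6471 CPM at day 5 and 51020 and 33877 CPM at day 7 (log2 fold change 2.70, SE 0.35, adjusted p = 0.000759). It took 0.688% and 0.673% of all counts at day 5 and 4.54% and 3.12% at day 7, the largest gain in CPM of any gene, and its day 7 replicates differed by more than its day 5 replicates. Of 23 genes of fatty acid synthesis 14 rose and 2 fell (1 without either day 5 replicate or day 7 replicate 1), with a median of 0.38. Acss2, which makes acetyl-CoA from acetate, rose from 142 and 118 to 815 and 663 CPM (log2 fold change 2.5). Fatty acid synthase (Fasn) rose from 3127 and 3232 to 4059.8 and 4084 CPM (log2 fold change 0.36, SE 0.09, adjusted p = 0.00364). In triglyceride assembly 15 of 20 tested rose and 3 fell: Dgat2, which adds the last fatty acid, rose from 98.1 and 81.9 to 418 and 380.2 CPM, and Mogat1, of the monoacylglycerol route, from 8.39 and 8.77 to 69.2 and 57.9 CPM. Agpat2, an earlier enzyme of the glycerol phosphate route, was high at day 5 and moved from 1726 and 1441 to 2044 and 2191 CPM.

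Genes of the lipid droplet and of lipolysis were 16 higher and 0 lower among 20 tested. Cidec and Cidea, lipid droplet proteins of the CIDE family that fuse droplets into larger ones, both rose. Cidec went from 786 and 599 to 2751 and 2550.2 CPM and Cidea from 4.35 and 3.16 to 59.4 and 34.9 CPM. Pnpla3, a lipase relative that responds to feeding in liver and fat, climbed from 3.48 and 1.91 to 58.8 and 52.3 CPM (log2 fold change 4.37, SE 0.19, adjusted p = 3.68e-10). The main triglyceride lipase Pnpla2 (ATGL) rose from 761 and 717 to 1240.4 and 1235 CPM and hormone-sensitive lipase (Lipe) from 295 and 249 to 709.7 and 627 CPM. Plin4, another droplet coat protein, read 2640.2 and 2444 CPM at day 5 and 4086 and 3601 CPM at day 7 with an adjusted p of 0.167, and was called in 2 of the 20 alternatives (the fit of the 4 libraries alone and that with no filter). In fatty acid capture and uptake 12 of 18 tested rose and 2 fell (1 without replicate 2 of either day). Lipoprotein lipase (Lpl) rose from 1589 and 1587 to 3245 and 3335 CPM and the fatty acid ligase Acsl1 from 2080.3 and 1717 to 3805 and 3871 CPM.

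Cholesterol synthesis and uptake genes, many of them targets of SREBP2, mostly rose, with log2 fold changes from -0.6 to 1.54. Of 27 tested, 20 rose and 1 fell (none when any of the 4 libraries was left out), 14 of the rises were at least 2-fold, and the median log2 fold change was 1.00. Farnesyl diphosphate synthase (Fdps) went from 55.3 and 42.9 to 147 and 139 CPM and phosphomevalonate kinase (Pmvk) from 67.5 and 49.1 to 181 and 158 CPM, both with a log2 fold change of 1.54 (adjusted p = 0.00011 and 5.44e-05). HMG-CoA synthase (Hmgcs1), an early enzyme of the pathway, rose from 657 and 583 to 1301 and 1188 CPM. Abca1, which exports cholesterol, read 866 and 949 CPM at day 5 and 1171 and 1144 CPM at day 7 (adjusted p = 0.0102) and lost its call without day 5 replicate 1 or day 7 replicate 1. Promoter windows, from RefSeq (build GRCm38.p6), run from 250 bases before to 50 after the transcription start. A sterol response element in the form TCACNCCAC, on either strand, was in 1 of 24 windows found for 19 of these genes (4.17%), that of Hmgcs1, and in 1.11% of the 12758 windows of all genes tested.

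Mitochondrial and peroxisomal genes rose broadly and by smaller steps. In fatty acid oxidation 20 of 24 rose, in the peroxisome list 25 of 32, in the tricarboxylic acid cycle 25 of 28, among genes named as complex I subunits 25 of 36, and among complexes II to V 32 of 41, and no tested gene of these lists fell. Their medians were 0.57, 0.57, 0.41, 0.40 and 0.37 on the log2 scale. Without day 5 replicate 2 the count for complexes II to V was 21. Catalase (Cat), which removes hydrogen peroxide in the peroxisome, rose from 989 and 825 to 2321 and 1993 CPM. Day 5 replicate 1 was the higher of its pair in 35 of the 36 complex I genes, 39 of the 41 of complexes II to V and 46 of the 50 mitochondrial ribosomal genes described next, against 6427 of all 12740; at day 7 replicate 1 was the higher in 27, 32 and 27. The part of this in the results was not tested. Without day 5 replicate 1, 27, 32 and 17 genes of these lists rose. Pyruvate carboxylase (Pcx), which refills the cycle for citrate export, rose from 1423 and 1237 to 2369 and 2259 CPM. Isocitrate dehydrogenase 1 (Idh1) read 3241 and 3075 CPM at day 5 and 3334 and 3258 CPM at day 7 and was not called (adjusted p = 0.908). Mitochondrial ribosomal proteins were called higher at about the share of all genes, with 11 of 50 higher against 19.0% of all genes tested. None was lower, against 18.8%, and their median was 0.12. The count of rises moved when single libraries were left out, and the median ran from 0.064 to 0.245 over the alternatives. Breakdown of branched-chain amino acids, a source of acetyl-CoA in fat cells, had 19 of 25 genes higher and none lower, such as Bckdha, from 153 and 130.2 to 306 and 282 CPM.

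Genes of brown and beige fat were mostly rare or untested. Of 19, 9 passed the filter, and of these 5 rose (55.6%) and none fell, against 19.0% and 18.8% of all genes tested. Ucp1, Elovl3 and Prdm16 were among those not tested. Ucp1 had 0 counts in every library of the 2 days, Elovl3 had 0 and 0 at day 5 and 0 and 1 at day 7, and Prdm16 had 0 and 1, then 3 and 2. Cox8b, a muscle and brown fat form of a cytochrome oxidase subunit, rose from 29.8 and 29.8 to 203 and 161 CPM (log2 fold change 2.61, SE 0.11, adjusted p = 1.19e-09). Ppargc1a, the coactivator PGC-1α, read 65.4 and 67.7 CPM at day 5 and 57.2 and 73 CPM at day 7 (adjusted p = 0.856).

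**Figure D3:**
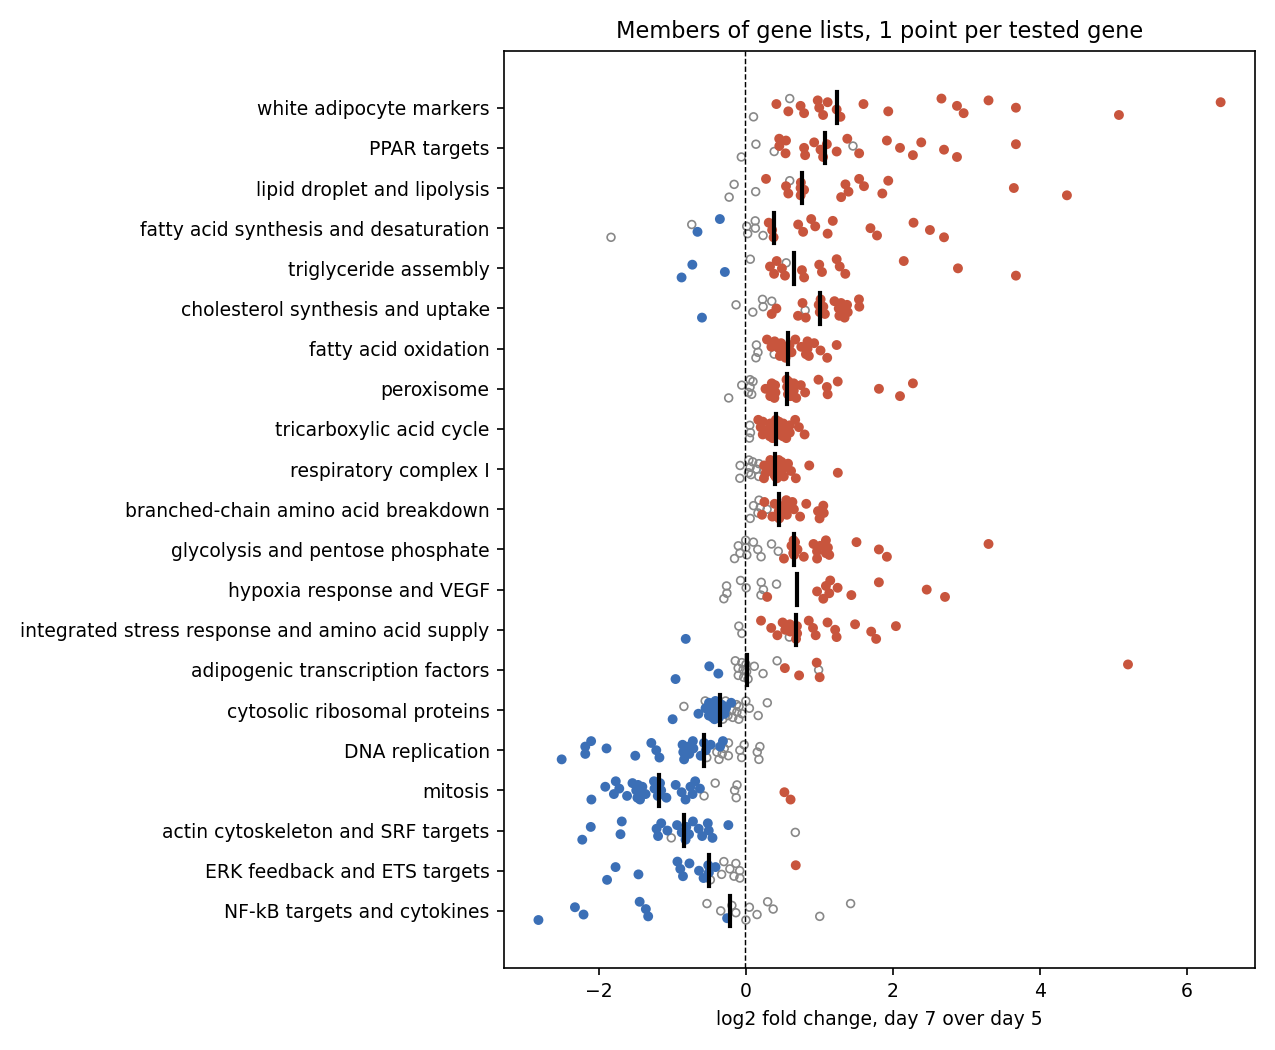
The log2 fold change of day 7 over day 5 for each tested member of 21 lists; filled points were called (red higher, blue lower), open points were not, thick bars are list medians and the dashed line is the median of all genes tested. Lipid, cholesterol and mitochondrial lists sit to the right of the line with almost no blue points, and mitosis, replication, ribosomal and actin lists to its left.

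Glycolysis and genes known to answer low oxygen rose beside the lipid genes. These lists share members, among them Ldha, Pdk1, Slc2a1 and Pfkfb3, which all rose and count in each. Of 32 genes of glycolysis and the pentose phosphate pathway 21 rose (65.6%) and none fell, against 19.0% and 18.8% of all genes tested. Their median was 0.65, and aldolase (Aldoa) rose from 2698 and 2445 to 5117 and 4614 CPM. Gapdh read only 2.42 and 2.51 CPM at day 5 and 4.29 and 2.47 CPM at day 7. Genes with many near-identical copies in the genome, such as this one, are uncertain, since how reads were shared among copies is not given in the sources used here. Of 20 hypoxia and VEGF genes 11 rose and none fell, 9 of them by at least 2-fold. Egln3 (PHD3), an oxygen sensor that is itself induced by HIF, read 26 and 24 CPM at day 5 and 194 and 134 CPM at day 7 (log2 fold change 2.71, SE 0.15, adjusted p = 2.1e-07). Bnip3, a mitophagy receptor, rose from 104 and 108 to 671 and 493 CPM, Pdk1 from 208 and 204 to 798 and 645 CPM, and lactate dehydrogenase A (Ldha) from 1403 and 1301 to 3221 and 2713 CPM. Day 7 replicate 1 was the higher of the 2 in all 4 of these genes and in 18 of the 20 tested. At day 5 replicate 1 was the higher in 8 of the 20. Over all 12740 genes it was the higher in 6356 at day 7 and 6427 at day 5. The part of this in the results was not tested, and oxygen was not analysed here. Promoter windows were found for 17 of the 20 genes. The core letters of a HIF binding site, ACGTG on either strand, were in 12 of their 23 windows (52.2%). They were in 25.3% of the windows of all genes tested and in 25.2% of those of genes called higher. Of the 11 genes with a match 9 were called higher, and of the 6 without 1, which describes these genes and does not show binding. The Egln3 window, shown because this gene had the largest rise of the list, lies at chr12:54203825-54204124 on the minus strand, with the match, from position -229 counted from the start at 0, in capitals.
Egln3 promoter: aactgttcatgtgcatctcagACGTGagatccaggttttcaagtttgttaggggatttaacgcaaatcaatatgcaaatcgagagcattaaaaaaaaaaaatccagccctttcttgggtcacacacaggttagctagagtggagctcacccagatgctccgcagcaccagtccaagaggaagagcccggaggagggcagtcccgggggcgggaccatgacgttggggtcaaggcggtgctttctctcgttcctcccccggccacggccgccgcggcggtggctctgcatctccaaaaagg

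Genes of the integrated stress response, in which ATF4 raises amino acid supply, ran down, up and down over the 3 intervals from day 3 to day 10, by their medians. Of 24 tested, 20 rose and 1 fell, with a median log2 fold change of 0.69, where the step from day 3 to day 5 had a median of -1.45 and that from day 7 to day 10 one of -0.82 (all genes tested, 0.012 and 0.004). Trib3, a pseudokinase induced by ATF4 and CHOP, read 209 and 293 CPM at day 3, 25.8 and 21.8 at day 5, 105 and 91.2 at day 7 and 64.1 and 43.4 at day 10. Its change from day 5 to day 7 was 2.04 on the log2 scale (SE 0.22, adjusted p = 0.000112). Ddit3, which encodes the stress factor CHOP, followed the same course, with 255 and 345, 36.7 and 34.2, 121 and 109.9 and 61.5 and 51.4 CPM at the 4 days (log2 fold change from day 5 to day 7 1.71, SE 0.13, adjusted p = 6.18e-07). Atf4 itself rose from 434 and 381 to 701 and 773 CPM. The lipoprotein receptor Vldlr, in the list as an ATF4 target, rose from 42.5 and 49.2 to 167 and 146 CPM and went on to 229 CPM at day 10, unlike Trib3. A test of whether the step from day 5 to day 7 differed from the step from day 3 to day 5 called 5251 of all genes (41.2%), 2084 as more positive (16.4%) and 3167 as more negative (24.9%). It called 20 of the 24 stress genes as more positive and 1 as more negative. Chaperones of the endoplasmic reticulum, which answer unfolded protein, did not move as one. Of 22 tested 6 rose (27.3%) and 4 fell (18.2%), against 19.0% and 18.8% of all genes tested.

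The promoters of this list were searched for the C/EBP-ATF response element in the form TGATGNAA, on both strands. It was in 9 of 26 windows of the list (34.6%) and in 2.27% of windows of all genes tested. Among windows of all genes called higher at day 7 it was in 2.77%. The list was drawn up by function, in part from ATF4 targets, so its share describes the list and does not show binding. Of the 9 genes with a match 8 were called higher, and of the 13 without 10, with 1 lower (Phgdh, of serine synthesis). The windows of Trib3 (chr2:152344011-152344310, minus strand) and of Chac1 (chr2:119350992-119351291, plus strand), an ATF4 target that degrades glutathione, are shown with the match in capitals; it begins at position 14 and -193 counted from the start at 0.
Trib3 promoter: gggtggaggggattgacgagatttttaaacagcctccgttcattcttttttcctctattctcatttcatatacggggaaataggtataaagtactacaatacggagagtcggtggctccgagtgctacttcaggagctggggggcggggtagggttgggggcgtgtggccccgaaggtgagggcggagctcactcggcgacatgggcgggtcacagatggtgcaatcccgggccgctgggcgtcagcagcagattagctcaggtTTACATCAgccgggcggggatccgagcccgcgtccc
Chac1 promoter: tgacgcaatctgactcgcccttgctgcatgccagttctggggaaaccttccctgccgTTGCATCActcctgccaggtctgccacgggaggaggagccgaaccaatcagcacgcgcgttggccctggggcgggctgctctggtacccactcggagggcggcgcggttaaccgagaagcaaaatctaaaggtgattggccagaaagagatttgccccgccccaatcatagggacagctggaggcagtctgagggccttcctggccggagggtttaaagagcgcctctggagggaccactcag

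Cell division genes went the opposite way. Of 34 mitosis genes 27 fell and 2 rose (0 without day 5 replicate 2 and 1 without either day 7 replicate), with a median log2 fold change of -1.18, after a rise between day 3 and day 5 with a median of 0.92. Mki67, a proliferation marker, read 14.4 and 7.96 CPM at day 3, 28 and 31.5 at day 5, 7.20 and 10.1 at day 7 and 8.60 and 11.3 at day 10, against 998 CPM at 0 h. Its log2 fold change from day 5 to day 7 was -1.77 (SE 0.24, adjusted p = 0.000537). The day 5 level was thus far below that of the starting cells, and day 7 returned to about the day 3 level. Topoisomerase 2 alpha (Top2a) fell from 42 and 42.7 to 13.2 and 17.1 CPM, and Polo-like kinase 1 (Plk1), which drives entry into mitosis, from 2.05 and 2.21 to 0.623 and 0.370 CPM. The step difference was called as more negative for 30 of the 34. Of 35 genes of DNA replication 22 fell and none rose (median -0.57), with Uhrf1, which copies DNA methylation at replication, going from 3.29 and 3.88 to 0.623 and 0.926 CPM. Many of these genes were near 1 CPM, where a change rests on few counts. Among cell cycle inhibitors 4 of 16 rose and 4 fell (2 without day 7 replicate 2): Cdkn1a (p21) rose from 21.7 and 23.6 to 52.2 and 41.4 CPM.

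**Figure D4:**
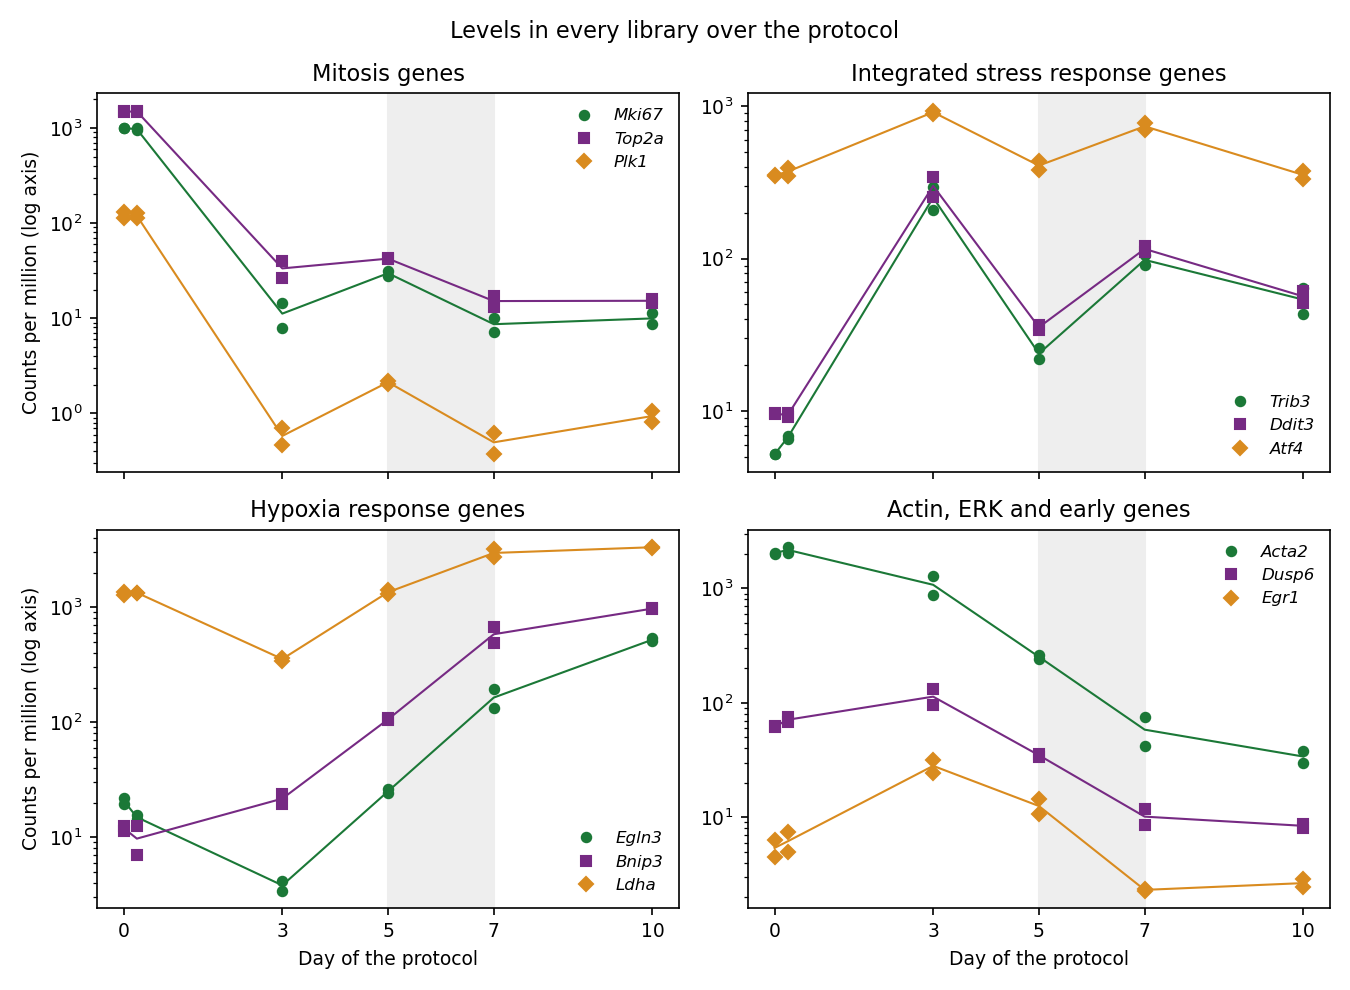
CPM in every library (points, log axis) and mean per time point (lines) from 0 h to day 10, with the interval from day 5 to day 7 shaded. Mitosis genes peak locally at day 5 far below 0 h, stress genes peak at day 3 and again at day 7, hypoxia genes climb through the interval, and Acta2, Dusp6 and Egr1 fall through it.

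Promoters of mitosis genes often carry a cell cycle homology region, searched here as TTTGAA on both strands, and CCAAT boxes, searched by those letters. The homology region was in 24 of the 30 windows found for 28 of the 34 mitosis genes (80.0%) and in 12.1% of windows of all genes tested. Among windows of all genes called lower at day 7 it was in 12.3%. The box was in 90.0% of the mitosis windows, 38.1% of all windows and 38.2% of those of genes called lower. The list was drawn up by function, so these shares describe the list and do not show binding. Of the 22 genes with the homology region 16 fell and 2 rose (Cenpa and Espl1), and of the 6 without all 6 fell. The windows of Mki67 (chr7:135716330-135716629, minus strand) and Plk1 (chr7:122159185-122159484, plus strand) show both motifs in capitals.
Mki67 promoter: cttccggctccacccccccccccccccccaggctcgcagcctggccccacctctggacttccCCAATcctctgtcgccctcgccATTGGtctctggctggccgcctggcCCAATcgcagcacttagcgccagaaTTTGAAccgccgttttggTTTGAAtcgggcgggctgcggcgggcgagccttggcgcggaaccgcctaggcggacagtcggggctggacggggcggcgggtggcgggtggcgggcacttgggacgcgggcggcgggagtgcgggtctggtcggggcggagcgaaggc
Plk1 promoter: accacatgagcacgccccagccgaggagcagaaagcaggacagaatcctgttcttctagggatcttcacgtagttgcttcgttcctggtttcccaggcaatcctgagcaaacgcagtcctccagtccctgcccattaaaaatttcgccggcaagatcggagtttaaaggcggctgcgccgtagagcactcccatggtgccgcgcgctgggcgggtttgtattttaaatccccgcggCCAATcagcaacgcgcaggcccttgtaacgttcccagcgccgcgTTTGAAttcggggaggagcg

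Genes of protein synthesis fell by smaller amounts. Of 40 cytosolic ribosomal proteins 23 fell and none rose (median -0.35), for example Rpl4, from 994 and 1008 to 697 and 716 CPM (log2 fold change -0.50, SE 0.07, adjusted p = 3.21e-05); members with many pseudogene copies are uncertain. Of 26 genes of Myc and ribosome biogenesis 13 fell and 3 rose. Mycn, a Myc family member, fell from 5.72 and 5.67 to 0.623 and 1.30 CPM, while the nucleolar factors Ncl (168 and 185 CPM, then 170.4 and 179 CPM) and Ubtf (187 and 183 CPM, then 198 and 193 CPM) were not called.

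Genes of the contractile cytoskeleton fell further. In that list of actin and SRF targets 20 of 22 genes fell, with none higher, with a median log2 fold change of -0.85. Smooth muscle actin (Acta2), a stress fibre protein, read 242 and 262 CPM at day 5 and 41.9 and 74.6 CPM at day 7 (log2 fold change -2.11, SE 0.30, adjusted p = 0.00125), with day 7 replicate 2 the higher of the pair. Cytoplasmic actin (Actb) fell from 2557 and 2521 to 1392 and 1502 CPM and filamin A (Flna), which cross-links actin, from 1335 and 1447 to 687 and 831 CPM. The myosin light chain Myl9 fell from 11.3 and 10.1 to 1.52 and 2.96 CPM. YAP and TEAD target genes, which respond to tension, had 11 of 19 lower and 2 higher (1 higher without either day 5 replicate or day 7 replicate 1), with 6 lower without day 7 replicate 1 and 7 without day 5 replicate 2. Ccn2 (CTGF), the best known of them, read 10.4 and 12.8 CPM at day 5 and 2.77 and 5.43 CPM at day 7 (adjusted p = 0.0298), and lost its call without day 7 replicate 1 or either day 5 replicate.

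Readouts of growth factor signalling fell as well. Of 21 ERK feedback and ETS genes 12 fell and 1 rose. The ERK phosphatase Dusp6 fell from 35.9 and 33.8 to 8.52 and 11.7 CPM (log2 fold change -1.77, SE 0.16, adjusted p = 2.47e-06), cyclin D1 (Ccnd1) from 104 and 117 to 48 and 67.8 CPM, and the ETS factor Etv4 from 2.80 and 3.28 to 0.692 and 0.926 CPM. Of 18 AP-1 and immediate early genes 11 fell and 3 rose, with 5 to 7 lower without day 5 replicate 2, without either day 7 replicate or with DESeq2. Egr1 fell from 10.6 and 14.4 to 2.35 and 2.28 CPM (log2 fold change -2.43, SE 0.26, adjusted p = 3.89e-06). Of 18 NF-kB targets and cytokines tested 7 fell and none rose (4 fell without replicate 2 of either day): the colony-stimulating factor Csf1 fell from 109.6 and 127 to 36.9 and 49.8 CPM and the chemokine Cxcl12 from 199 and 202 to 68.2 and 87.9 CPM.

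BMP2 was present throughout, and its direct target genes did not share a direction. Of 16 BMP targets tested 5 rose (31.2%) and 2 fell (12.5%), against 19.0% and 18.8% of all genes tested. Only 1 fell without either day 5 replicate and 0 without day 7 replicate 1. Id1, which encodes a dominant-negative partner of bHLH factors, rose from 87.1 and 83.3 to 104 and 108 CPM, Id2 read 309.9 and 324 CPM at day 5 and 314 and 327 CPM at day 7 (adjusted p = 0.898), and the BMP antagonist noggin (Nog) rose from 0.932 and 1.49 to 3.74 and 3.89 CPM. Among BMP and TGF-beta receptors and ligands 3 of 23 rose and 7 fell. Tgfbr2, the receptor that binds TGF-beta, fell from 606 and 641 to 256 and 326 CPM (log2 fold change -1.10, SE 0.12, adjusted p = 2.1e-05). Its ligand Tgfb3 fell from 144 and 155 to 59.6 and 73.3 CPM. TGF-beta target genes had 5 of 22 higher (22.7%) and 7 lower (31.8%), and 2 lower without day 5 replicate 2 or without day 7 replicate 1. In the WNT list 10 of 26 fell (38.5%) and 4 rose (15.4%), and 2 rose without day 5 replicate 2 or either day 7 replicate. Wnt7b fell from 9.07 and 9.01 to 1.87 and 1.54 CPM, the secreted WNT inhibitor Sfrp2 from 34.1 and 46.1 to 9.07 and 10.7 CPM, and Notum, an enzyme that inactivates WNT ligands, from 33.3 and 36.9 to 4.78 and 9.88 CPM, so ligand and inhibitors fell alike.

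Genes that activate and inactivate glucocorticoids moved in opposite directions. Hsd11b1, which regenerates active glucocorticoid and is high in fat, rose from 109 and 107 to 1320.2 and 1081 CPM (log2 fold change 3.47, SE 0.09, adjusted p = 3.51e-13). Hsd11b2, which inactivates the same hormone, fell from 11.2 and 12.1 to 3.95 and 4.38 CPM (log2 fold change -1.48, SE 0.19, adjusted p = 4.48e-05), with 0 counts in both day 3 libraries. The glucocorticoid receptor Nr3c1 rose from 285 and 308 to 455 and 440.0 CPM. The ACTH receptor Mc2r and its obligate partner Mrap were among the 12 largest rises: Mc2r went from 0.932 and 0.597 to 14.5 and 12.8 CPM and Mrap from 0.808 and 0.239 to 25.5 and 21.3 CPM. Ghrh, growth hormone releasing hormone, had the highest fitted rise by that rule, with 0 and 0.418 CPM at day 5 and 43.5 and 16.8 at day 7 and 673 and 456 at day 10. Its 2 day 7 libraries differed widely, and its call (adjusted p = 0.00534) was lost in the fit of the 4 libraries alone.

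Other genes with the largest rises were the ceramide synthesis gene Sptlc3 (0.435 and 0.597 CPM, then 18.6 and 12.2 CPM), the keratin Krt79 (4.97 and 1.97 CPM, then 107 and 70.2 CPM), the fatty acyl-CoA reductase Far2 (4.91 and 4.77 CPM, then 89.5 and 64.6 CPM), the adenylate cyclase Adcy5 (2.98 and 2.15 CPM, then 41.5 and 30.6 CPM), the osteoclast-associated receptor Oscar (0.808 and 0.597 CPM, then 14 and 7.22 CPM) and the interferon-inducible Ifi27l2a (0.932 and 1.31 CPM, then 34.7 and 27.8 CPM). Each had a higher mean at day 10. The 12 largest falls included those of secreted and surface proteins. The protease inhibitor Slpi fell from 78.7 and 99.2 to 4.64 and 10.4 CPM, with an adjusted p of 0.00649 and no call without day 7 replicate 1. Lipocalin 2 (Lcn2) fell from 23.9 and 25.2 to 3.05 and 2.22 CPM, the TNF receptor Tnfrsf1b from 20.8 and 27.7 to 2.56 and 4.57 CPM, the stem cell antigen Ly6a (Sca-1) from 92.5 and 103 to 18.5 and 19.7 CPM and the chemokine Cxcl5 from 12.2 and 15.6 to 2.28 and 3.21 CPM. S100a4, a marker of fibroblasts and motile tumour cells, had the largest loss in CPM of any gene tested, from 2052 and 2017 to 733 and 962 CPM. The aldehyde dehydrogenase Aldh3a1 fell from 667 and 657 to 123 and 227 CPM, a call lost in the fit of the 4 libraries alone.

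Mesenchymal and EMT genes were called in both directions. Of 21 tested 9 fell (42.9%) and 4 rose (19.0%), against 18.8% and 19.0% of all genes tested. Fewer fell without day 5 replicate 2, and fewer rose without day 5 replicate 1 or either day 7 replicate. Their median log2 fold change was -0.299 and ran from -0.406 to -0.18 over the alternatives. Cd44, a hyaluronan receptor of mesenchymal and tumour cells, fell from 54.1 and 61.4 to 30.1 and 32.1 CPM. Vimentin (Vim), the intermediate filament of mesenchymal cells, read 2963 and 3013 CPM at day 5 and 2326 and 2434 CPM at day 7, with an adjusted p of 0.0612, and was called in 6 of the 20 alternatives, DESeq2 among them. The EMT factor Zeb1 read 129.6 and 135 CPM at day 5 and 111 and 114 CPM at day 7, and its call (adjusted p = 0.0281) was lost without any 1 of the 4 libraries and with DESeq2. E-cadherin (Cdh1) stayed below 1 CPM, at 0.559 and 0.239 CPM at day 5 and 0.0692 and 0.247 CPM at day 7 (adjusted p = 0.311). The name MTΔECad points to a deletion of this gene, so its low level cannot serve as a readout of epithelial character. Epcam rose from 3.48 and 2.74 to 7.34 and 8.09 CPM while the keratin Krt7 fell from 27 and 29.8 to 7.13 and 10.6 CPM. Of 11 epithelial genes tested 3 rose (27.3%) and 1 fell (9.09%). Only 1 rose without day 5 replicate 2 or either day 7 replicate, and 2 fell without day 5 replicate 1 or day 7 replicate 2.

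Matrix genes split. Of 32 collagen genes 13 rose and 8 fell, with 7 higher without day 7 replicate 1, 8 higher without day 5 replicate 1 and 5 lower without day 5 replicate 2. Fibronectin (Fn1) read 823 and 1576 CPM at day 5 and 763 and 707 CPM at day 7 and was not called (adjusted p = 0.266). Fbln5, an elastic fibre protein, rose from 12 and 14.5 to 93.7 and 74.9 CPM, thrombospondin 1 (Thbs1) from 1631 and 1598 to 3361 and 3124 CPM, and osteopontin (Spp1) fell from 1798 and 1994 to 1141 and 1290.3 CPM, a call lost without day 7 replicate 1. Timp1, a metalloprotease inhibitor, fell from 18.1 and 20.6 to 4.43 and 5.93 CPM.

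Interferon genes had no common direction between the 2 days. Of 29 tested 5 rose (17.2%) and 9 fell (31.0%), against 19.0% and 18.8% of all genes tested. Only 2 or 3 rose when any of the 4 libraries was left out. The median log2 fold change was -0.28, and the step from day 7 to day 10 had a median (all genes tested, 0.004) of 2.79. Bst2, which tethers viruses to the cell surface, fell from 2.98 and 2.33 to 0.969 and 1.05 CPM and stood at 17.3 and 15 CPM at day 10. Isg20, an antiviral nuclease, rose from 1.86 and 2.51 to 20.7 and 11.5 CPM. MHC class I genes had 1 of 16 higher (6.25%) and 5 lower (31.2%), with 1 to 3 lower when any of the 4 libraries was left out.

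Markers of other cell types differed widely in level. Of 14 leukocyte markers 9 were in the table and 3 were tested, with none higher and 1 lower (Cd14, whose call was lost in 4 of the 20 alternatives), and their summed level was 15.5 and 15.9 CPM at day 5 and 11.6 and 11.5 CPM at day 7. Of 11 endothelial markers 5 were tested and 1 rose: Pecam1, from 0.186 and 0.179 to 1.52 and 1.42 CPM. All 5 nerve and glial markers tested rose, 3 of them with DESeq2, and their sum went from 24.5 and 21.9 to 35.9 and 36.7 CPM. In the largest term of that sum, Mbp, the levels were 20.4 and 17.7 CPM at day 5 and 24.2 and 25.7 CPM at day 7. Of 10 bone and cartilage genes tested 1 rose and 4 fell (2 without day 7 replicate 1), among them alkaline phosphatase (Alpl), from 18 and 21.5 to 7.96 and 10.0 CPM. The 17 members in the table summed to 1926 and 2183 CPM at day 5 and 1243 and 1432 CPM at day 7, most of it osteopontin, which other cells make too. The 11 mammary luminal genes in the table summed to 344 and 341 CPM at day 5 and 312 and 336 CPM at day 7, with 2 of 6 tested higher (1 without day 5 replicate 2 or day 7 replicate 1) and 2 lower. The most abundant of them, the keratin Krt8, read 156 and 127 CPM at day 5 and 164 and 180.4 CPM at day 7 (adjusted p = 0.132).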

How the data were processed

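Total RNA of MTΔECad cells was sequenced from stranded libraries made from 200 ng of RNA, per the labels' protocols, which also call the sequenced RNA poly-A+. The authors deposited raw counts per gene with a gene length, made from reads mapped to mm10 by STAR according to the submitters' processing notes. How reads were counted, on which annotation and whether by strand, is not given in the sources used here. Of 17090 Entrez identifiers 17045 were matched to symbols with RefSeq (GRCm38.p6), 4 with GENCODE, and 41 not.

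Counts of all 12 libraries (12820802 to 17570366 per library) went into edgeR 4.0.16 (R 4.3.3): TMM factors, filterByExpr (minimum count 10), 1 mean per time point, 6 residual degrees of freedom, robust quasi-likelihood test, Benjamini-Hochberg adjustment over 12740 genes, 4350 having been removed. CPM use those factors. Replicates spread more than counting error, with chi-square per degree of freedom of 10.3 at day 5 and 10.9 at day 7. A second contrast set the step from day 5 to day 7 against that from day 3 to day 5. The fit was also run on simulated counts of 12672 genes, of which only 67, 67 and 66 were changed 1.5-fold, 2-fold and 4-fold. It recovered 68.7%, 91.0% and 97.0% of these, with 9 false among 180 calls. The changed genes were at 1 CPM or more and far fewer than the genes called here, so these rates do not carry over to rarer genes.

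The time points, lists and genes were chosen with earlier results of these data known. Named genes are key genes, the 12 largest called rises and falls (at least 10 CPM, no overlap), the 6 largest CPM gains and losses of called genes, per list the 3 largest called changes and 2 highest levels, and the 6 most positive and negative step differences. Alternatives were RLE and upper-quartile factors, no filter or a mean of 1 CPM, each library left out, a replicate block, DESeq2 1.42.0, the 4 libraries alone and a prior count of 1.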

Additional observations from a re-analysis of the deposited data

Results flagged for a closer look

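The step from day 5 to day 7 differed from the step from day 3 to day 5 for 5251 genes by edgeR's quasi-likelihood test of the difference (41.2% of those tested); the day 5 libraries enter both steps. Candidates were genes called in both tests with at least 10 CPM at the highest of days 3, 5 and 7. Of the 6 most positive and 6 most negative differences, the 7 with more than 3 counts at each day are given. Only Plin1 among them had a negative difference, though 3167 genes were called more negative and 2084 more positive. Plin1 rose from 0.127 and 0.132 CPM at day 3 to 746 and 627 at day 5 and 1228 and 1149.6 at day 7. Its step difference was -11.49 on the log2 scale, with few counts at day 3. Prr32 had fallen from 18.7 and 26.6 CPM at day 3 to 0.124 and 0.179 at day 5 and read 3.32 and 2.22 at day 7, a step difference of 11.25, with few counts at day 5. Car6 (carbonic anhydrase 6) read 8.45 and 14.7, 0.373 and 0.656 and 3.81 and 2.41 CPM at the 3 days (difference 7.01). Depp1, a FOXO target, read 6.73 and 2.57, 0.870 and 1.01 and 16.3 and 11.1 CPM (difference 6.14). Stbd1, which tethers glycogen to membranes, read 171 and 225, 12.2 and 15.8 and 69.2 and 44.4 CPM (difference 5.83). Bcat1, the cytosolic branched-chain aminotransferase, read 54.3 and 58.8, 1.68 and 1.97 and 3.46 and 3.02 CPM (difference 5.77), so its level at day 7 stayed far below day 3. Angptl6 read 15.2 and 29.9, 1.18 and 1.55 and 5.05 and 3.27 CPM (difference 5.62). All 7 of these step differences kept their call in every alternative.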

How the results depend on the processing

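Under other scaling, filters, tool, block or the 4 libraries alone, each count of called genes stayed within 1.5 times its value (3965 called with DESeq2, 4439 in the 4 libraries, 5047 with no filter), and the median log2 fold change of all genes lay between -0.0467 and 0.0095. Leaving out 1 library moved the count of called genes between 3128 and 5154, of higher genes between 1686 and 2592, of lower genes between 1442 and 2562, of 2-fold rises between 495 and 646, of 2-fold falls between 309 and 530, of step differences between 3983 and 5277, of more positive ones between 1575 and 2088, and of more negative ones between 2408 and 3189; the lowest counts of called, higher and lower genes and of falls came without day 7 replicate 1, and the cause was not tested. Of 259 named genes followed, 250 were called, 49 of these lost the call under at least 1 alternative (42 without day 7 replicate 1), and none reversed. With replicate numbers as a block 4908 genes were called, 4759 of them shared with the fit without it; deviations of same-numbered libraries of day 5 and day 7 correlated at only 0.032, so the numbers were not taken as pairs. Counts near or below 1 CPM limit what can be seen in mitosis and hormone genes.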

Other observations

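Several genes that were not called had 1 library far from its replicate, and they were picked after their values were seen. Lars2, a mitochondrial leucyl-tRNA synthetase, read 162 and 14.8 CPM at day 7 and 18.3 and 20.6 CPM at day 5, with 120.0 and 17.5 CPM at day 10 and 8.45 and 69.4 at day 3. Mir6236, annotated as a miRNA, was high in the same libraries, with 89.9 and 10.4 CPM at day 7, 75.2 and 10.6 at day 10 and 4.19 and 47.4 at day 3. Rprl2, annotated as an RNase P RNA, read 921 and 28.7 CPM at day 5 and 39.3 and 41.2 CPM at day 7. Perlecan (Hspg2), a basement membrane protein, read 69.6 and 145 CPM at day 5 and 32.4 and 32.8 CPM at day 7 (adjusted p = 0.0605).

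Clock genes had 7 of 17 higher (41.2%) and none lower, against 19.0% and 18.8% of all genes tested, and 4 higher without day 5 replicate 2. Arntl (BMAL1), an activator of the clock, rose from 23.2 and 22.3 to 43.4 and 35.4 CPM (log2 fold change 0.79, SE 0.11, adjusted p = 2.46e-05), Rora rose from 23.1 and 30.9 to 54.1 and 54 CPM, while Clock read 256 and 265 CPM at day 5 and 259 and 271 CPM at day 7 (adjusted p = 0.803). The labels give no hour of harvest. Of 17 apoptosis regulators 2 rose (11.8%) and 7 fell (41.2%), and 3 fell without day 7 replicate 1. Bbc3 (PUMA), a killer protein of the Bcl2 family, rose from 11.1 and 9.90 to 20.7 and 19.1 CPM, and the caspase inhibitor Xiap from 132 and 151 to 225 and 211 CPM. In the Notch list 4 of 16 rose and 4 fell. Mfng, which modifies Notch receptors, went from 0 counts at day 3 to 16.2 and 16.2 CPM at day 5 and 111 and 112 CPM at day 7 (log2 fold change from day 5 to day 7 2.78, SE 0.09, adjusted p = 5.2e-11), while Notch1 fell from 105 and 126 to 89.4 and 80.1 CPM. Among antioxidant and detoxification genes 12 of 32 rose (37.5%) and 6 fell (18.8%). The epoxide hydrolase Ephx2 rose from 259 and 233 to 660.3 and 610.5 CPM. The estrogen receptor Esr1 fell from 11.2 and 15.6 to 3.67 and 4.14 CPM (log2 fold change -1.78, SE 0.20, adjusted p = 4.94e-06).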
